A study of Rattus norvegicus with 24 samples.

Results

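The canalicular membrane is the face of the hepatocyte that borders the bile canaliculus, and 7 genes that encode its export pumps and its phospholipid flippase were followed in rat liver after ANIT. The genes were Abcb11, Abcb4, Atp8b1, Abcc2, Abcg2, Abcb1a and Slc47a1. Their members on the array were all probe sets whose platform annotation names 1 of these genes and no other, which gave 8 of 31139 probe sets and 7 of the 13438 genes measured. Abcb1a had 2 probe sets and each of the others had 1. The rats were 8-week-old male Sprague Dawley rats, 6 in each of 4 groups and 24 in all, with 1 liver array per rat. Each had received 1 intragastric dose of ANIT (alpha-naphthylisothiocyanate, a compound toxic to bile duct epithelium that produces cholestasis in rats) at 50 mg/kg in corn oil, or corn oil alone, at 10 ml/kg. Necropsy followed at 24 h, which the labels name as peak injury, or at 120 h, which they name as the time of resolution. Every rat in all 4 groups, vehicle included, had been fasted overnight for about 18 h and had received bromodeoxyuridine, a label of DNA synthesis, before necropsy. The whole liver was sampled, so fewer cells of a type and less RNA per cell cannot be told apart in these values.

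Bile forms when hepatocytes move bile acids, phospholipid and organic anions across the canalicular membrane against a gradient, and water follows. Abcb11 (the bile salt export pump, BSEP) carries conjugated bile acids, and Abcb4 (MDR2 in rodents) brings phosphatidylcholine to the outer leaflet, where it forms mixed micelles with them. Atp8b1 (FIC1) flips phospholipid inward and keeps the membrane stable in the presence of bile acids. Abcc2 (MRP2) exports bilirubin glucuronides and glutathione conjugates, Abcg2 (BCRP) exports sulfated conjugates and many drugs, Abcb1a (a P-glycoprotein of rodents) exports hydrophobic compounds, and Slc47a1 (MATE1) exchanges organic cations for protons. Inherited loss of ABCB11, ABCB4 or ATP8B1 causes familial cholestasis in humans.

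Values are the deposited log2 expression values, and a change is a difference of group means on that scale, given with its standard error from limma (6 arrays against 6). Calls are genes whose adjusted p, by Benjamini-Hochberg across the 13438 genes, was below 0.05. The labels name neither a batch nor shared litters. Array medians lay between 5.34 and 5.54 and array SDs between 1.84 and 2.09, and the arrays were put into a narrow, a middle and a wide band of that SD. The vehicle 24 h group held 3 narrow, 2 middle and 1 wide array, and the ANIT 24 h group held 3 middle and 3 wide. The vehicle 120 h group held 4 middle and 2 wide, and the ANIT 120 h group held 3 narrow and 3 wide, so band and group were partly mixed. The 9 measured hepatocyte markers of 10 had means from 8.48 for Tat to 13.2 for Alb, which fits the tissue label. The 3′ to 5′ log2 ratio of the beta-actin control, a measure of RNA integrity and labelling, was 3.12 ± 0.07 (SD, n = 6) with ANIT at 24 h and 2.84 ± 0.05 with vehicle, without overlap (exact permutation p = 0.0022, adjusted p = 0.022 over 20 array measures). The same ratio of the GAPDH control ran from 1.55 to 1.66 with ANIT at 24 h and from 1.62 to 1.82 with vehicle. That of the hexokinase control ran from -0.38 to -0.06 and from -0.86 to -0.12. The groups overlapped for both of these controls, and neither was tested. The log2 summed level of the 3 measured neutrophil markers of 6 ran from 8.22 to 9.11 with ANIT at 24 h and from 6.72 to 8.24 with vehicle (exact permutation p = 0.0043, adjusted p = 0.029). That of the 5 measured lymphocyte markers of 6 ran from 7.13 to 7.37 and from 7.41 to 7.71 (exact permutation p = 0.0022, adjusted p = 0.022). The summed level of the 7 stellate cell markers at 120 h ran from 10.9 to 11.4 with ANIT and from 10.6 to 11.0 with vehicle (exact permutation p = 0.0065, adjusted p = 0.032). None of these 7 genes was called singly at 120 h. At 24 h their sum was lower on average with ANIT, from 10.1 to 10.9 against 10.5 to 11.0 with vehicle (exact permutation p = 0.019, adjusted p = 0.078). The sum of the 8 measured cholangiocyte markers of 9 at 120 h ran from 8.85 to 9.45 with ANIT and from 8.79 to 9.08 with vehicle (exact permutation p = 0.037, adjusted p = 0.12). The part of these cell markers in the changes at either time was not tested.

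At 24 h, 3 of the 7 genes rose and none fell. These were Abcg2 at 2.66-fold, Abcb4 at 1.70-fold and Abcb11 at 1.37-fold. Over all genes 18.2% were called at that time, 12.9% as higher and 5.31% as lower. The share of calls that were higher, 70.9%, depended on the scaling, with 47.9% when the spiked control level was a covariate, 51.1% with the array SD, 54.5% after a second quantile normalization and 81.2% after arrays were shifted to a common median. The median log2 change of the 7 genes was 0.45, against 0.00 over all genes. In the plot of values by rat the 3 risers were shifted as groups. Of the other 4 genes, Abcc2 had 4 of 6 ANIT rats below every vehicle rat, and Abcb1a had 4 above and 1 below every vehicle rat, while Atp8b1 and Slc47a1 lay mostly inside the vehicle range. In the order of group means, ANIT 24 h was the highest group for Abcb11, Abcb4, Abcg2 and Abcb1a and the lowest for Abcc2. Of the 21 steps between neighbouring groups in that order over the 7 genes, 4 exceeded the larger of the neighbours' SDs, namely the top step of Abcb11, Abcb4 and Abcg2 and the bottom step of Abcc2.

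**Figure D1:**
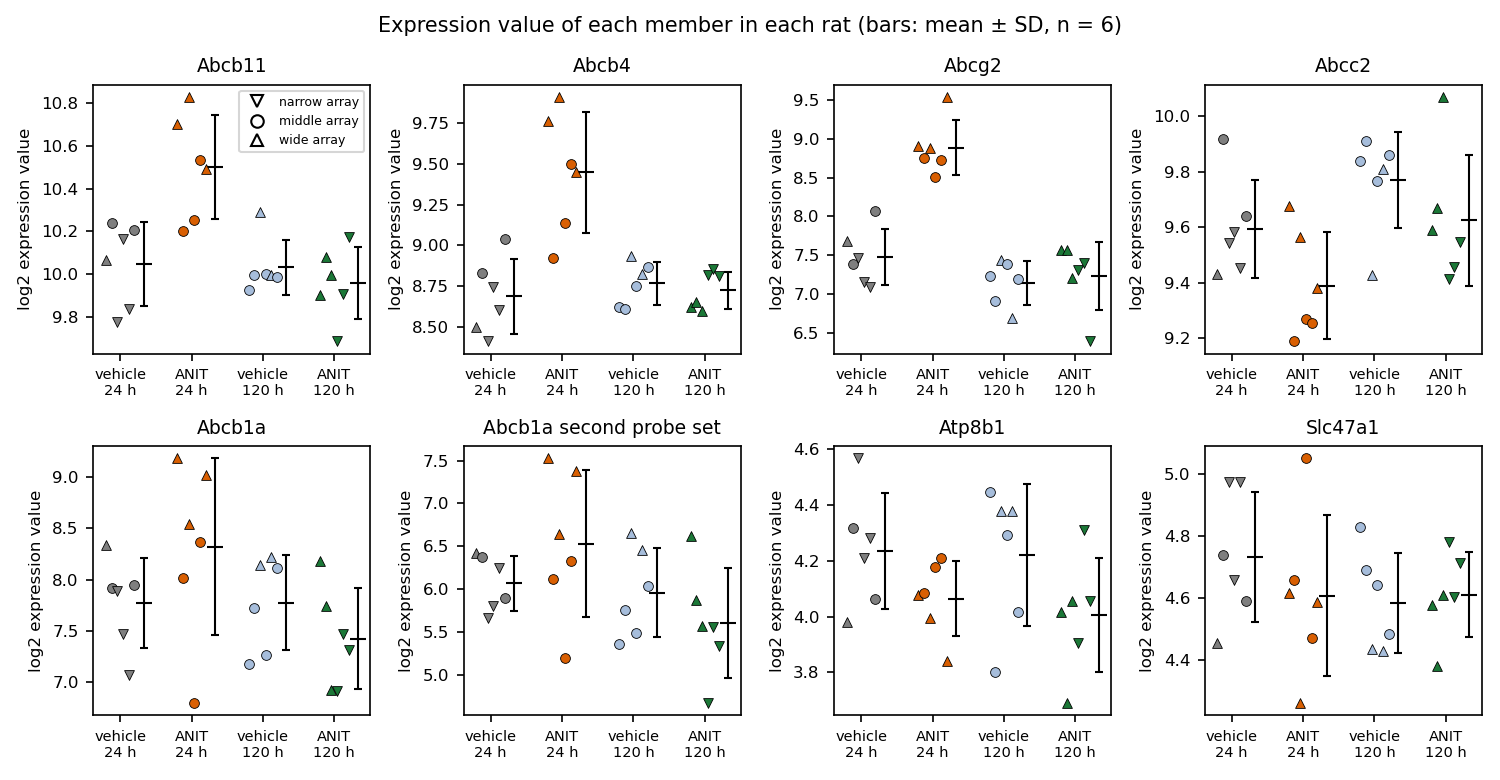
Log2 expression value (vertical axis) of each of the 8 probe sets in each of the 24 rats, by group, with the group mean ± SD (n = 6) and the marker shape giving the array's SD band. All 6 ANIT rats lie above all 6 vehicle rats at 24 h for Abcg2, and 5 of 6 do so for Abcb11 and for Abcb4.

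Abcb11, the bile salt export pump (probe set 1368769_PM_at), read from 9.78 to 10.2 with a median of 10.1 in the 6 vehicle rats at 24 h. With ANIT at 24 h it read from 10.2 to 10.8 with a median of 10.5. At 120 h the vehicle rats ran from 9.92 to 10.3 (median 9.99) and the ANIT rats from 9.69 to 10.2 (median 9.95). At 24 h, 5 of 6 ANIT rats lay above every vehicle rat, and at 120 h the ranges overlapped, with 3 of 6 ANIT rats below every vehicle rat. The change at 24 h was 0.45 ± 0.11 (95% interval 0.22 to 0.69, limma adjusted p = 0.0053). The steps from vehicle 24 h down to vehicle 120 h and ANIT 120 h were 0.02 and 0.07, smaller than their SDs. Within the middle arrays the difference at 24 h was 0.11, and within the wide arrays, with 1 vehicle rat, it was 0.61. The call was lost when the narrow arrays were left out (0.33, adjusted p = 0.1) and when the beta-actin ratio was added as a covariate (0.30, adjusted p = 0.38). Because that ratio did not overlap between ANIT and vehicle at 24 h, it was strongly mixed with treatment in every fit that used it.

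Abcb4, the phosphatidylcholine floppase (1369161_PM_at), read from 8.41 to 9.04 with a median of 8.67 in the vehicle rats at 24 h. With ANIT at 24 h it read from 8.92 to 9.91 with a median of 9.47. At 120 h the vehicle rats ran from 8.61 to 8.93 (median 8.79) and the ANIT rats from 8.59 to 8.85 (median 8.73). As for Abcb11, 5 of 6 ANIT rats exceeded every vehicle rat at 24 h, and the ANIT 120 h rats lay inside or just below the vehicle range. The change at 24 h was 0.76 ± 0.13 (95% interval 0.49 to 1.04, limma adjusted p = 0.00018). It was called with the beta-actin ratio as a covariate (0.84, adjusted p = 0.01) and without the narrow arrays (0.66, adjusted p = 0.014). The difference was 0.25 within the middle arrays and 1.22 within the wide arrays.

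Abcb4 and Abcb11 also varied together from rat to rat inside the groups. After each group's mean was removed, their Pearson r over 24 rats was 0.75 and Spearman's rho 0.66 (permutation within groups, p = 0.00058 and 0.0022, adjusted p = 0.0021 and 0.0065 over 12 relations). Without the 2 rats farthest from the Abcb11 median, r was 0.68. By band it was 0.54 in the narrow, 0.92 in the middle and 0.81 in the wide arrays. By group, a split chosen after the values were seen, r was 0.99 with ANIT at 24 h, 0.79 with vehicle at 24 h, 0.68 with vehicle at 120 h and -0.22 with ANIT at 120 h (6 rats each), and 0.52 over the 18 rats outside the ANIT 24 h group. After the level of the 9 spiked hybridisation controls was removed from both, r was 0.80. The corresponding r was 0.10 for Abcg2 with Abcb11, 0.18 for Abcg2 with Abcb4 and 0.37 for Abcc2 with Abcb11, and none of these 3 passed the adjusted test (adjusted p 0.72, 0.51 and 0.15).

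**Figure D2:**
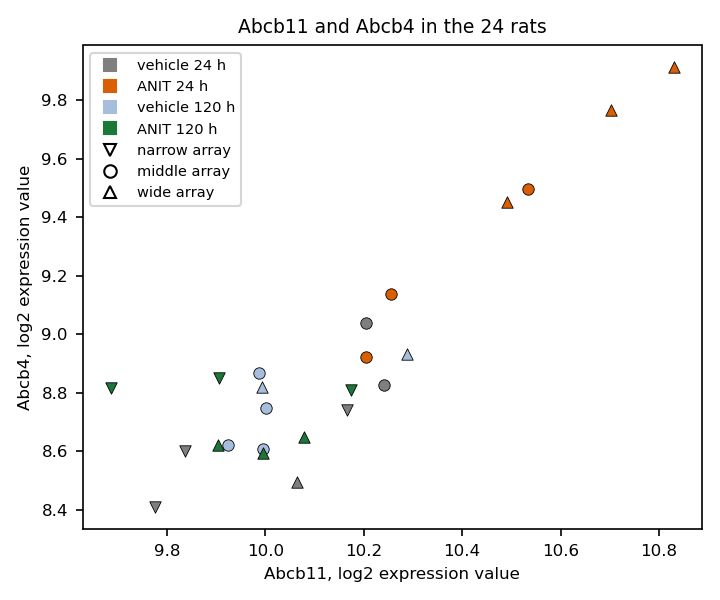
Abcb4 (vertical axis) against Abcb11 (horizontal axis), both as log2 expression values, in the 24 rats, with colour for group and marker shape for the array's SD band. The ANIT 24 h rats reach 10.8 for Abcb11 and 9.91 for Abcb4, and r inside the groups is 0.75.

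Abcg2, the pump of sulfated conjugates (1380577_PM_at), read from 7.09 to 8.07 with a median of 7.43 in the vehicle rats at 24 h. With ANIT at 24 h it read from 8.50 to 9.54 with a median of 8.82. At 120 h the vehicle rats ran from 6.70 to 7.44 (median 7.22) and the ANIT rats from 6.39 to 7.56 (median 7.36). It was the member without any overlap at 24 h, a property that 5.54% of all genes had as higher and 2.32% as lower, and the groups overlapped again at 120 h. The change at 24 h was 1.41 ± 0.20 (95% interval 1.01 to 1.81, limma adjusted p = 9.3e-06). It was 0.93 within the middle arrays and 1.43 within the wide arrays, and 1.50 with the beta-actin ratio as a covariate (adjusted p = 0.0018). Inside the groups, Abcg2 was lower in rats whose spiked controls read higher (Pearson r = -0.55 and Spearman's rho -0.54 over 24 rats, permutation p = 0.011 for each, adjusted p = 0.026 for each, r = -0.50 without the 2 farthest). By band that r was -0.24 in the narrow, -0.53 in the middle and -0.39 in the wide arrays, and with the control level as a covariate the change at 24 h was 1.20 (adjusted p = 1.7e-05).

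The promoters of Abcb4 and Abcg2 are shown because both genes rose, and that of Abcc2 as a pump that did not pass the test. They are 300 bases each, 250 before and 50 from the transcription start, from RefSeq on build GRCr8, at chr4:26164096-26164395 (minus strand) for Abcb4, chr4:89075224-89075523 (plus strand) for Abcg2 and chr1:252613625-252613924 (plus strand) for Abcc2. Capitals mark the matches to the motifs named after them, on either strand.
Abcb4: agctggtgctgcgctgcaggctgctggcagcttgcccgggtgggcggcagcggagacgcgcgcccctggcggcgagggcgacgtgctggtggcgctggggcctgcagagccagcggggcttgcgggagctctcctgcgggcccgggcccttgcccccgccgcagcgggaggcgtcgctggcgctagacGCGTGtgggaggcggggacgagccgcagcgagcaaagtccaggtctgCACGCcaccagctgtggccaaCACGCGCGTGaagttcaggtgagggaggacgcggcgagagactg
Abcg2: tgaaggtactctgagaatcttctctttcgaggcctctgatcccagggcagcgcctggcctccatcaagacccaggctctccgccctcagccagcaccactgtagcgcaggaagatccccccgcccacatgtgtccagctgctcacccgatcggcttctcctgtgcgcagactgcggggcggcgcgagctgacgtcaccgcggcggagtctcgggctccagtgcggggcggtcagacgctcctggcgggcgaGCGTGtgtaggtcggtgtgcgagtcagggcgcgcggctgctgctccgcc
Abcc2: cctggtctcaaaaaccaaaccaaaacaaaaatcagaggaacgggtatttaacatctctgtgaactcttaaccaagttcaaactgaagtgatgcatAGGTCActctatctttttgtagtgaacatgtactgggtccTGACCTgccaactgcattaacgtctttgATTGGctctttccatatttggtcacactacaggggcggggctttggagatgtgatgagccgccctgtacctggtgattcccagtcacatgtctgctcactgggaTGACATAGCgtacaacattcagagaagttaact
Of the 7 genes, 5 matched the promoter table, and Abcb11 and Slc47a1 are named only. The xenobiotic response core GCGTG, the letters bound by the aryl hydrocarbon receptor, occurred 4 times in Abcb4 (2 of the matches directly adjacent to each other) and once, at positions 2 to 6 from the start, in Abcg2. It was in 2 of the 5 promoters and in 29.7% of 33469 promoters of the same length. The inverted repeat to which the bile acid receptor FXR binds with RXR, a pair of AGGTCA arms facing each other across 1 base, was in 0 of the 5 and in 0.0269% of all. The single arm AGGTCA, which lies inside that repeat, occurred in Abcc2 at positions -155 to -150 and, on the other strand, at -115 to -110, and in 16.2% of all. The antioxidant response core TGACNNNGC, used by Nrf2, was in Abcc2 and Atp8b1 and in 12.1% of all. CCAAT was in Abcc2 and Atp8b1 (37.5% of all) and TATAAA in Atp8b1 (14.2% of all). GC content was 74.33% for Abcb4 and 68% for Abcg2, against 44.67% for Abcc2, 53.67% for Abcb1a, 40% for Atp8b1 and a median of 51.67% over all promoters. The letters searched are short, and a match is given as a description of these windows only.

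Abcc2, the pump of bilirubin glucuronides (1368497_PM_at), read from 9.43 to 9.92 with a median of 9.56 in the vehicle rats at 24 h. With ANIT at 24 h it read from 9.19 to 9.68 with a median of 9.32. At 120 h the vehicle rats ran from 9.43 to 9.91 (median 9.83) and the ANIT rats from 9.41 to 10.1 (median 9.57). At 24 h 4 of 6 ANIT rats lay below every vehicle rat and the remaining ones fell inside the vehicle range. The change of -0.21 ± 0.12 did not pass the test (95% interval -0.44 to 0.03, limma adjusted p = 0.23). It was -0.54 within the middle arrays and 0.11 within the wide arrays. After the table was quantile normalized once more it was -0.33 (adjusted p = 0.034), which was past the threshold.

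Abcb1a, the P-glycoprotein (1370465_PM_at), read from 7.07 to 8.34 with a median of 7.91 in the vehicle rats at 24 h. With ANIT at 24 h it read 9.18, 8.02, 8.54, 6.80, 8.37 and 9.02 in rats 1 to 6, whose numbers are only names. At 120 h the vehicle rats ran from 7.18 to 8.22 (median 7.92) and the ANIT rats from 6.91 to 8.18 (median 7.39). At 24 h 4 ANIT rats lay above every vehicle rat and 1, rat 4, below every vehicle rat. The SD of the ANIT 24 h group, 0.86, was larger than that of 99.9% of genes in the same group, where the median SD was 0.20. Abcb1a varied more than most genes in the other groups too. Its SD was 0.44 with vehicle at 24 h, 0.46 with vehicle at 120 h and 0.49 with ANIT at 120 h. These were larger than those of 90.9%, 96.7% and 92.8% of genes in the same groups. The change at 24 h of 0.55 ± 0.31 did not pass the test (95% interval -0.09 to 1.19, limma adjusted p = 0.23). Without rat 4 it was 0.85 (adjusted p = 0.023). The 3 ANIT rats with the highest values were those on wide arrays, and the difference was 0.58 within the wide arrays and -0.21 within the middle ones. Inside the groups, Abcb1a was lower where the spiked controls read higher (Pearson r = -0.63 and Spearman's rho -0.71 over 24 rats, permutation p = 0.00071 and 0.00021, adjusted p = 0.0021 and 0.0013, r = -0.56 without the 2 farthest). In the narrow band r was -0.61, in the middle band -0.72 and in the wide band 0.23.

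The second probe set of Abcb1a (1370464_PM_at) followed the first in 3 of the 4 groups. Inside the groups their Pearson r over 24 rats was 0.86 and Spearman's rho 0.84 (permutation p = 1e-05 for each, the smallest that 100000 permutations can give, adjusted p = 0.00012 for each). Without the 2 farthest rats r was 0.89, and the bands gave -0.02 (narrow), 0.95 (middle) and 0.85 (wide). By group it was 0.17 with vehicle at 24 h, 0.98 with ANIT at 24 h, 0.92 with vehicle at 120 h and 0.88 with ANIT at 120 h. With ANIT at 24 h the second probe set ran from 5.19 to 7.53 with a median of 6.49, and with vehicle from 5.66 to 6.42 with a median of 6.07. Its change was 0.47 ± 0.33 at 24 h (limma adjusted p = 0.38 over all 31042 probe sets that are not controls) and -0.36 ± 0.33 at 120 h (adjusted p = 0.71). Rat 4 was again the lowest of the ANIT 24 h group. A further probe set names both Abcb1a and Abcb1b, its neighbour, and is no member. It differed by 0.30 ± 0.24 at 24 h and by 0.46 ± 0.24 at 120 h (adjusted p = 0.45 and 0.48), and signal of these related genes cannot be told apart in it. In the rat gene table Abcb4, Abcb1b and Abcb1a lie next to each other in that order.

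Atp8b1, the flippase (1391693_PM_at), and Slc47a1, the organic cation exchanger (1390835_PM_at), read below every array's median and above the nonspecific control probe sets, which reached 3.10 at most. Atp8b1 read from 3.98 to 4.57 (median 4.25) with vehicle and from 3.84 to 4.21 (median 4.08) with ANIT at 24 h, and from 3.80 to 4.45 (median 4.34) and from 3.69 to 4.31 (median 4.04) at 120 h. All 6 ANIT rats lay below the vehicle median at both times, but the groups overlapped. The changes of -0.17 ± 0.12 at 24 h and -0.21 ± 0.12 at 120 h did not pass the test (limma adjusted p = 0.34 and 0.43, 95% intervals -0.42 to 0.07 and -0.46 to 0.03). Slc47a1 read from 4.45 to 4.97 (median 4.70) with vehicle and from 4.26 to 5.05 (median 4.60) with ANIT at 24 h, and from 4.43 to 4.83 (median 4.56) and from 4.38 to 4.78 (median 4.61) at 120 h. The Slc47a1 groups overlapped at both times, with changes of -0.12 ± 0.12 and 0.03 ± 0.12 (limma adjusted p = 0.49 and 0.95). Inside the groups Slc47a1 was higher where the spiked controls read higher (Pearson r = 0.65 and Spearman's rho 0.62 over 24 rats, permutation p = 0.00033 and 0.0013, adjusted p = 0.002 and 0.0054, r = 0.56 without the 2 farthest). The narrow band gave 0.32, the middle band 0.65 and the wide band -0.03.

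At 120 h 0 of the 7 genes had an unadjusted limma p under 0.05, against 1865 of all 13438 genes. None of the 7 passed limma's test after adjustment, while 2.02% of all genes were called, 0.513% as higher and 1.51% as lower. Higher calls made up 25.4% of these, against 37.5% with the spiked control level as a covariate, 52.9% with the array SD and 40.9% after quantile normalization. Changes ran from -0.35 for Abcb1a to 0.10 for Abcg2, with adjusted p from 0.43 to 0.95. The median of the 7 was -0.07, against -0.01 over all genes. The 95% intervals were -0.31 to 0.16 for Abcb11, -0.32 to 0.23 for Abcb4 and -0.31 to 0.50 for Abcg2, so the upper bound lay below the change seen at 24 h for each of these 3. The comparisons at 24 h and 120 h share no rats.

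**Figure D3:**
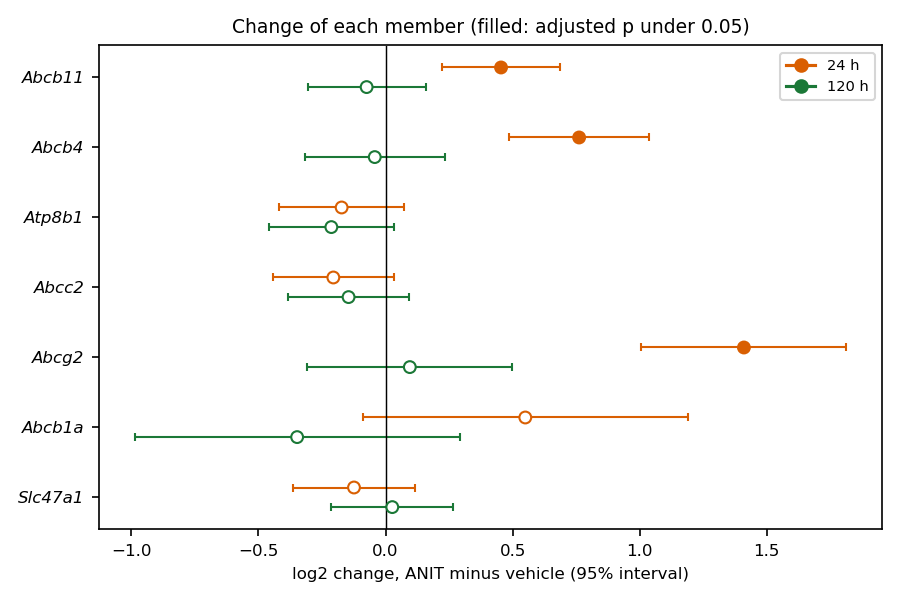
Log2 change, ANIT minus vehicle (horizontal axis), with its 95% interval, for the 7 genes at 24 h and 120 h (6 rats in each group), with filled points where the limma adjusted p was under 0.05. Abcg2, Abcb4 and Abcb11 are filled at 24 h at 1.41, 0.76 and 0.45, and no gene is filled at 120 h.

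The ANIT effect itself differed between times for the same 3 genes. The effect at 120 h minus that at 24 h was -1.31 ± 0.28 for Abcg2, -0.80 ± 0.19 for Abcb4 and -0.53 ± 0.16 for Abcb11 (limma adjusted p = 0.0021, 0.0054 and 0.027). Over all genes 14.3% were called for this difference, 11% with the lower effect at 120 h and 3.33% with the higher. The latter were 23.3% of the calls, against 47%, 51.1%, 44.5% and 12.1% under the 4 scalings in the order named for 24 h. Abcb1a differed by -0.90 ± 0.44, which did not pass (adjusted p = 0.17), and Abcc2, Atp8b1 and Slc47a1 differed by 0.06, -0.04 and 0.15 (adjusted p from 0.54 to 0.89). Leaving out the narrow arrays, which took 3 rats from the vehicle 24 h group and 3 from the ANIT 120 h group, none of the 3 genes passed (adjusted p = 0.077, 0.055 and 0.28). Of the 12 alternatives other than leaving out a rat, Abcb11 lost its call in 7, Abcb4 in 3 and Abcg2 in 2. Abcb11 lost it with the spiked control level, the array SD, the band, the beta-actin ratio, array weights and quantile normalization too (adjusted p from 0.06 to 0.55). Abcb4 also lost it after quantile normalization (0.065) and with the beta-actin ratio (0.067), and Abcg2 with the band (0.055). Abcb11 also lost its call when any 1 of 5 rats was left out, with adjusted p of 0.053 or 0.054. Those were vehicle 24 h rat 3, ANIT 24 h rats 1 and 3, vehicle 120 h rat 3 and ANIT 120 h rat 4. Without ANIT 24 h rat 4 the difference for Abcb1a was -1.20 (adjusted p = 0.025). The vehicle groups gave no called member between the times by limma, where 0.00744% of all genes (1 gene) were called. Of the 7 members, 0 had an unadjusted p under 0.05 there, against 1639 of all 13438 genes. The vehicle differences ran from -0.33 for Abcg2 to 0.18 for Abcc2.

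The balance among the pumps was then compared inside each rat, as the log2 difference between 2 genes, a measure that removes a shift common to a whole array. It does not remove unequal array SDs where the 2 genes lie at different levels. A change of the difference between 2 genes shows unequal change, not which gene moved. Of 21 pairs at 24 h, 10 changed with ANIT (exact permutation test of 6 against 6, two-sided, adjusted over 42 tests), and of 21 pairs at 120 h none did. Each of the 10 pairs held at least 1 of the 3 risers. The risers were called in the same rats, so this follows in part from those calls and is no separate result. Abcb11 minus Atp8b1, a called pair with a dim gene, changed by 0.63, with 0.14 within the middle arrays and 0.62 within the wide arrays. Abcb4 minus Atp8b1, also called, changed by 0.93, with 0.29 within the middle arrays and 1.2 within the wide arrays. As background, the difference between Abcb11 and each of the other 13437 genes was higher without overlap with ANIT at 24 h for 11.7% of them, that of Abcb4 for 18.1% and that of Abcg2 for 83.5%. These are shares without overlap and not shares passing the test, so the count of 10 has no matching share over all genes. The smallest exact p that 6 against 6 allows is 0.0022, with an adjusted p of 0.018. Abcb11 minus Abcc2 was 1.11 ± 0.13 (SD, n = 6) with ANIT at 24 h and 0.45 ± 0.16 with vehicle, higher in 6 of 6 ANIT rats than in any vehicle rat (exact p = 0.0022, adjusted p = 0.018). The gap between these groups of 0.66 was 0.65 within the middle arrays and 0.50 within the wide arrays. Abcb4 minus Abcc2 was 0.06 ± 0.23 with ANIT and -0.91 ± 0.19 with vehicle, again without overlap (exact p = 0.0022, adjusted p = 0.018). So the bile salt pump and the phospholipid pump both shifted upward relative to the conjugate pump, in every ANIT rat at 24 h.

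The risers also differed among themselves at 24 h. Abcb11 minus Abcb4 was 1.05 ± 0.13 (SD, n = 6) with ANIT and 1.36 ± 0.14 with vehicle, lower in 5 of 6 ANIT rats than in any vehicle rat (exact p = 0.0065, adjusted p = 0.034). This gap of -0.31 was -0.14 within the middle arrays and -0.61 within the wide arrays. Abcb11 minus Abcg2 was 1.62 ± 0.37 with ANIT and 2.57 ± 0.34 with vehicle, lower in 6 of 6 (exact p = 0.0022, adjusted p = 0.018). Abcb4 minus Abcg2 differed by -0.65 and did not pass the adjusted test (exact p = 0.019, adjusted p = 0.068). Abcg2 minus Abcb1a rose by 0.86, with 5 of 6 ANIT rats above every vehicle rat (exact p = 0.011, adjusted p = 0.045). At 120 h the Abcb11 minus Abcc2 difference was 0.33 ± 0.24 with ANIT and 0.26 ± 0.30 with vehicle, and these overlapped (exact p = 0.66, adjusted p = 0.77).

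**Figure D4:**
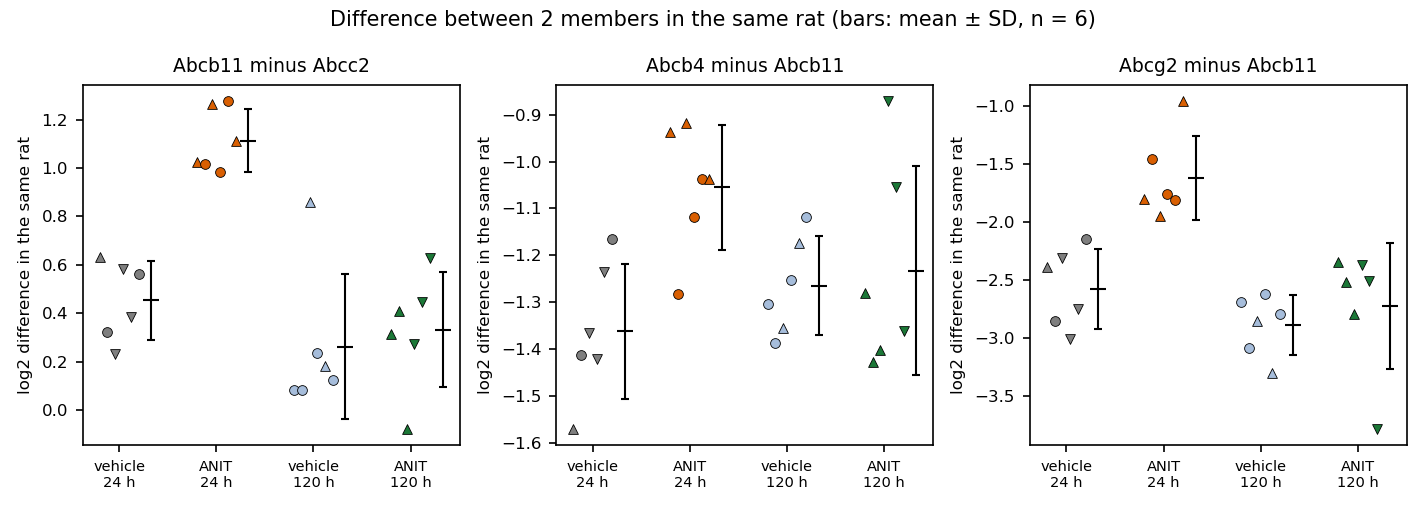
Log2 difference between 2 genes in the same rat (vertical axis) for Abcb11 minus Abcc2, Abcb4 minus Abcb11 and Abcg2 minus Abcb11, by group, with the group mean ± SD (n = 6) and the marker shape giving the array's SD band. The 6 ANIT 24 h rats average 1.11 for Abcb11 minus Abcc2 and lie above all 6 vehicle 24 h rats.

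For each of the 3 risers, the genes most alike were those with the smallest root mean square difference of log2 values, centred per gene, over the 24 arrays. For Abcb11 they were Serping1 at 0.12, Arpc1b at 0.13 and Ubxn4 at 0.14, where the median over all genes was 0.36. For Abcb4 they were Copa at 0.18, Abcb11 itself at 0.18 and Uso1 at 0.20, against a median of 0.45. For Abcg2 they were Nav2 at 0.32, Plpp5 at 0.35 and Nherf1 at 0.35, against a median of 0.81. At 24 h the 8 genes other than Abcb11 in these lists changed by 0.41 (Serping1) to 1.56 (Nherf1). These genes were chosen as closest over the same 24 arrays, so small distances and a similar change at 24 h follow from the choice.

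Other genes of the canalicular membrane and of its trafficking were mixed at 24 h. Of 17 measured among 21, 2 rose, 4 fell and 11 did not pass, with a median of -0.05. Nherf1, a scaffold protein under the apical membrane that binds ABC transporters, ran from 8.78 to 9.11 with vehicle and from 9.89 to 11.0 with ANIT at 24 h. Its change was 1.56 ± 0.13 (limma adjusted p = 5.8e-09), and a second Nherf1 probe set gave 0.43 ± 0.11 (adjusted p = 0.0089 over all probe sets). Abcg5, which pairs with Abcg8 to export sterols into bile, ran from 6.27 to 6.79 with vehicle and from 5.17 to 6.26 with ANIT at 24 h. Its change was -0.98 ± 0.18 (limma adjusted p = 0.00031), while Abcg8 differed by -0.23 and did not pass (adjusted p = 0.26). Abcg8 read from 4.03 to 4.38 with vehicle and from 3.72 to 4.13 with ANIT at 24 h. These values lie below every array's median, so low signal limits Abcg8. The remaining called genes, named after their values were seen, were Cttn, an actin-binding protein, which rose by 0.51, and the aminopeptidase Anpep, the membrane linker Rdx and the scaffold Pdzk1, which changed by -0.56, -0.29 and -0.55. A second Cttn probe set changed by 0.15 ± 0.13 at 24 h and did not pass (limma adjusted p = 0.5 over all probe sets). After arrays were shifted to a common median Rdx and Pdzk1 lost their calls (-0.22 and -0.48, adjusted p = 0.08 and 0.076), and Cttn lost its call with the beta-actin ratio (0.41, adjusted p = 0.1). Tmem30a, the partner subunit that flippases such as Atp8b1 need to leave the endoplasmic reticulum, differed by -0.04 ± 0.08 at 24 h and by 0.22 ± 0.08 at 120 h (adjusted p = 0.74 and 0.17), and after quantile normalization it was called as higher at 120 h (0.28, adjusted p = 0.023).

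At 120 h, when no pump was called, 2 of these 17 genes were lower and 15 did not pass. Abcg5 ran from 6.44 to 7.66 with vehicle and from 5.61 to 6.15 with ANIT, without overlap (1.58% of all genes at 120 h did the same as lower and 0.558% as higher), a change of -0.93 ± 0.18 (limma adjusted p = 0.0064). Pdzk1 ran from 8.02 to 8.38 with vehicle and from 6.91 to 7.94 with ANIT, a change of -0.73 ± 0.16 (adjusted p = 0.016). Without the narrow arrays these were -0.82 and -0.35 and neither passed (adjusted p = 0.11 and 0.21). Pdzk1 lost its call in 3 alternatives, the one without the narrow arrays included, and also without ANIT 120 h rat 4 or rat 6 (adjusted p = 0.054 and 0.051).

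On the opposite, basolateral face, uptake carriers were lower where they changed. Of 7 measured among 8, 4 fell at 24 h and 3 did not pass, with a median of -0.54. Slc10a1, the sodium-dependent bile acid carrier NTCP, ran from 11.4 to 11.8 with vehicle and from 10.8 to 11.3 with ANIT, a change of -0.54 ± 0.08 (limma adjusted p = 3e-05). Slco1b2, an organic anion carrier, changed by -0.59 ± 0.10 (adjusted p = 9.7e-05), and its second probe set by -1.17 ± 0.10. At 120 h 2 of the 7 fell. Slc22a8, an organic anion transporter, changed by -1.57 ± 0.25 (adjusted p = 0.0008) and its second probe set by -1.13 ± 0.27 (adjusted p = 0.034 over all probe sets). Slc22a7, of the same family, changed by -0.49 ± 0.13 (adjusted p = 0.045). That call was lost in 14 of 24 fits that left out 1 rat and in 6 of the other alternatives.

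Basolateral export pumps went both ways at 24 h, with 2 of 5 measured among 6 higher, 1 lower and 2 not passing. Abcc3 (MRP3), which moves conjugates back to blood, ran from 7.94 to 8.60 with vehicle and from 8.41 to 9.63 with ANIT at 24 h, a change of 0.54 ± 0.15 (limma adjusted p = 0.012). That call was lost without the narrow arrays, with the beta-actin ratio and after a second quantile normalization (adjusted p = 0.075, 0.17 and 0.13). At 120 h Abcc3 ran from 7.74 to 8.28 and from 8.55 to 8.94, without overlap, a change of 0.77 ± 0.15 (adjusted p = 0.0058), and it was the 1 gene called of the 5. At the same time 2 of 8 measured cholangiocyte markers were called as higher, Krt19 by 0.73 ± 0.12 (adjusted p = 0.0015) and Cftr by 0.49 ± 0.12 (adjusted p = 0.037), and their part in the Abcc3 change was not tested. Abcc6, a pump of the same family, changed by -0.38 ± 0.10 at 24 h (adjusted p = 0.0089), a call lost when arrays were shifted to a common median (-0.30, adjusted p = 0.051) or when the beta-actin ratio was added (-0.42, adjusted p = 0.11). Abcc4 (MRP4), named after its values were seen, rose by 0.79 ± 0.24 at 24 h (adjusted p = 0.023). It lost that call with the spiked control level, the band or the beta-actin ratio in the fit (adjusted p = 0.092, 0.16 and 0.33), when the narrow arrays were left out (0.29, adjusted p = 0.49), and without vehicle rat 3, 4 or 5 or ANIT rat 1 or 6 (adjusted p from 0.052 to 0.077).

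Among 11 measured of 12 transcriptional regulators known to act on these pumps, 2 rose, 2 fell and 7 did not pass at 24 h. None of the 11 passed limma's test at 120 h. There 2 of the 11 (Nr1i2 and Nfe2l2) had an unadjusted p under 0.05, against 1865 of all 13438 genes. Nr1h4, the bile acid receptor FXR that activates Abcb11 and Abcb4 transcription, ran from 8.12 to 8.75 with vehicle and from 6.91 to 8.01 with ANIT at 24 h. Its change was -1.16 ± 0.20 (limma adjusted p = 0.00014), without overlap. Nr0b2 (SHP), an FXR target that represses bile acid synthesis, ran from 5.79 to 7.79 and from 8.27 to 9.79, also without overlap, a change of 2.35 ± 0.25 (adjusted p = 2e-07). At 120 h Nr1h4 and Nr0b2 differed by 0.01 and 0.04 (adjusted p = 0.99 and 0.97). Nr1i2 (PXR), the xenobiotic receptor, and Nfe2l2 (Nrf2), the regulator of the antioxidant response, differed at 120 h by -0.48 ± 0.15 and 0.31 ± 0.11 (adjusted p = 0.093 and 0.19). Nr1i2 was called as lower at 120 h under 5 alternatives, with adjusted p of 0.021 for the spiked control level, 0.038 for the array SD, 0.043 after quantile normalization, 0.047 for the band and 0.042 with only the 2 groups in the fit. Nfe2l2 differed at 24 h in the opposite direction, by -0.28 ± 0.11 (adjusted p = 0.09). Under each of 6 alternatives it was called both as lower at 24 h and as higher at 120 h. These were the spiked control level (-0.42 and 0.37), the array SD (-0.39 and 0.39), the band (-0.44 and 0.41), quantile normalization (-0.45 and 0.42), array weights (-0.32 and 0.42) and leaving out the narrow arrays (-0.34 and 0.57).

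**Figure D5:**
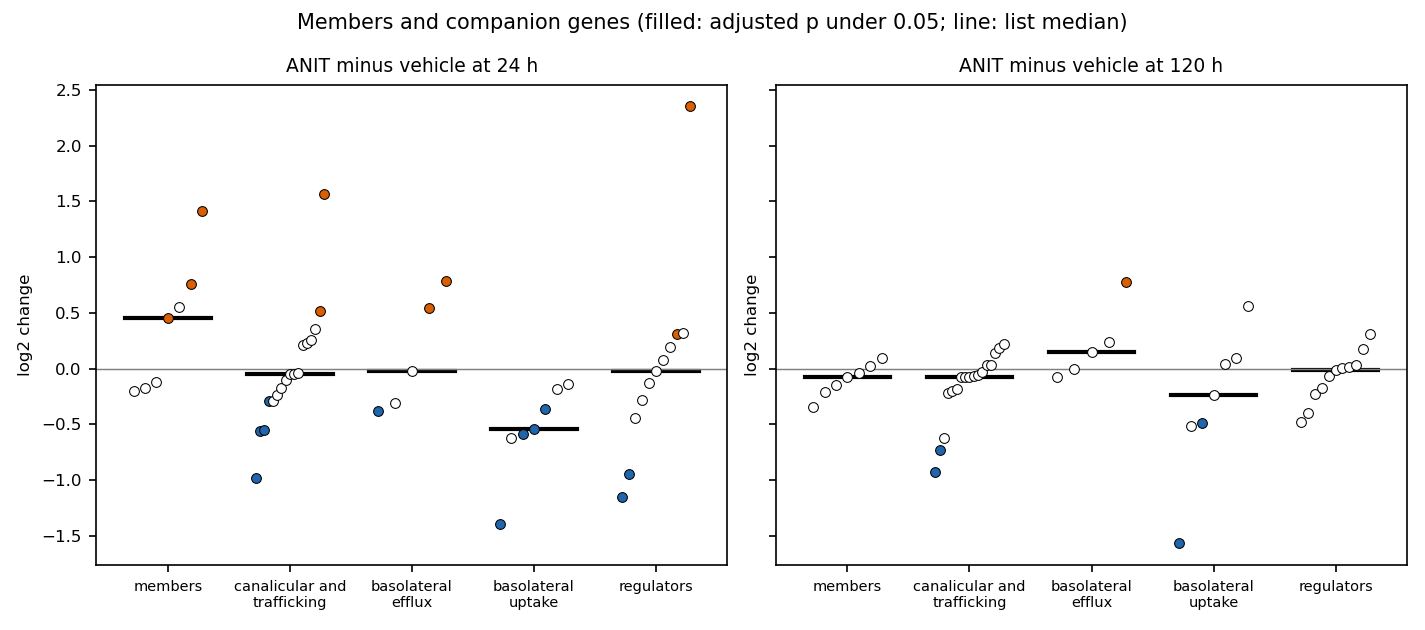
Log2 change, ANIT minus vehicle (vertical axis), of each measured gene in the 5 lists (horizontal axis) at 24 h and 120 h, with filled points where the limma adjusted p was under 0.05 and a line at each list's median. At 24 h the medians are 0.45 for the canalicular pumps and flippase and -0.54 for basolateral uptake.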

How the data were processed

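Liver RNA of 24 rats was amplified and biotin-labelled and hybridised to one-colour arrays, 1 per rat, per the labels' protocols. The authors deposited log2 expression values per probe set. RMA and Partek are named in the submitters' processing notes, without version or settings. The table was used as deposited, and the number of arrays limits the precision. The platform's annotation supplied gene names, with 19068 probe sets of 1 gene, 573 of several and 11498 without a listed gene. Of several probe sets for 1 gene, the one with the highest mean over all arrays was kept, which left 13438 genes.

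Group means were fitted in 1 model with limma 3.58.1 in R 4.3.3, and p-values were adjusted over all genes by Benjamini-Hochberg. The model was tested on simulated data. Single values were tested by exact permutation in Python 3.11.15 with NumPy 2.4.6, and relations between rats by 100000 permutations within groups. SciPy 1.17.1 supplied the ranks for Spearman's rho. Promoters came from RefSeq on GRCr8. Named companion genes were the 2 with the smallest p per list and comparison, plus Abcb1b (no probe set of its own), Tmem30a, Nr1h4 and Nr0b2. Members, lists and tests were chosen with earlier results of these data known. The alternatives were array covariates (spiked controls, SD, beta-actin ratio), 2 other scalings, the SD bands, the choice of probe set, a filter on dim genes, the groups in the fit, the variance model, and leaving out each rat.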

Additional observations from a re-analysis of the deposited data

Results flagged for a closer look

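The ANIT effect differed between times by the test of the difference for 3 genes, at -0.53 for Abcb11, -0.80 for Abcb4 and -1.31 for Abcg2 on the log2 scale (120 h minus 24 h). Without the narrow arrays none of the 3 passed, in a fit with 3 fewer rats in each of the vehicle 24 h and ANIT 120 h groups. Abcb11 lost its call in 7 of 12 alternatives and in 5 of 24 fits that left out 1 rat.

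Dixon's criterion marked a single rat far from the rest of its group of 6 in 3 of 36 groups of values, where chance alone marks about 1 in 20. The highest vehicle 120 h rat for Abcb11, rat 3, read 10.3 against a group median of 9.99. The lowest vehicle 120 h rat for Abcc2, also rat 3, read 9.43 against a median of 9.83. The lowest ANIT 120 h rat for Abcg2, rat 6, read 6.39 against a median of 7.36.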

How the results depend on the processing

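The 3 calls among the members at 24 h stayed 3 to 4 with any 1 rat left out, and Abcb4 and Abcg2 passed under all alternatives that gave a test. At 120 h, and between the vehicle groups, no member was called under any alternative. For the difference between times, 3 members were called, against 1 after a second quantile normalization, 1 with the SD band as a block, 1 with the beta-actin ratio as a covariate and 0 without the narrow arrays, and 2 to 4 with any 1 rat left out. The cause was not tested. Over all genes, the count called at 24 h was 2451, against 1554 without the narrow arrays, 907 with the beta-actin ratio and 3683 over all probe sets. At 120 h it was 272, against 674 with the spiked control level, 652 with the array SD, 501 after quantile normalization, 143 after shifting medians, 176 with only the 2 groups and 152 to 343 with 1 rat left out. For the difference it was 1924, against 852 without the narrow arrays, 438 with the beta-actin ratio and 1430 to 3148 with 1 rat left out. Between the vehicle groups it was 1, against 1 to 175 with 1 rat left out. Shifting arrays to a common median moved the median of all genes to -0.13 for the difference, from -0.02. The filter on dim genes removed Atp8b1 and Slc47a1, which have no value there. No paired analysis was possible because the replicate numbers follow accession order and the labels tie no rat of one group to a rat of another. Low signal limits Atp8b1 and Slc47a1.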
